A study of Mus musculus with 48 samples.

Results

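The effect of cranial irradiation on juvenile hippocampal microglia was compared between 1 day and 1 week, gene by gene, as the difference between irradiated and sham animals at 1 week minus the same difference at 1 day. That difference of differences is called the shift here. It was computed for all 10132 genes that passed a filter on low values, from the 24 libraries of these 2 times out of 48 in the series. C57BL/6 mice received a single whole brain dose of 8 Gy from an X-RAD320 source on postnatal day 21, or a sham procedure, and microglia were sorted from the hippocampus on Cx3cr1. Each of the 4 groups (sham and irradiated at 1 day, sham and irradiated at 1 week) held 6 libraries, each from the sorted cells of a separate mouse, so that each time had its own shams and the 2 effects shared no sample. The Cx3cr1 gate admits other Cx3cr1-bearing macrophages and monocytes besides microglia.

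Ionising radiation breaks DNA, and the transcription factor p53 answers by inducing genes of cell cycle arrest, repair and death, among them Cdkn1a, which encodes the kinase inhibitor p21. Microglia, the resident macrophages of the brain, can also pass through a reactive state in which lysosomal, lipid handling and interferon-stimulated genes rise while genes of the surveying, homeostatic state fall. A response that returns to the sham level is called resolved below, and one that crosses to the other side of the sham level a rebound.

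At 1 day 435 genes differed between irradiated and sham microglia (4.29% of those tested), 294 higher (2.9%) and 141 lower (1.39%). At 1 week 359 differed (3.54%), 206 higher (2.03%) and 153 lower (1.51%). The shift itself passed the threshold for 550 genes (5.43%), with 257 higher (2.54%) and 293 lower (2.89%). These calls, like all others below, used limma on log2(RPKM + 1) with a Benjamini-Hochberg adjusted p under 0.05, where RPKM is the reads of a gene divided by its span in kilobases and scaled to the library's reads on genes, and RPM is the same without the span. Values on that scale are written as log2 differences, and they understate the change of genes at low RPKM. Higher calls were 46.7% of all shift calls. They were 33.8% when libraries were scaled by median ratios instead of totals. Single libraries moved these counts by over 1.5 times. The count of higher shifts was 158, 168, 169 and 446 without sham library 1, 2, 4 or 6 at 1 day, 142 and 153 without irradiated library 2 or 3 at 1 day, and 147 without sham library 4 at 1 week, which also left 195 lower shifts. Genes lowered at 1 day were 89 and 90 without irradiated library 2 or 3. Genes raised at 1 week were 86 and 126 without sham library 4 or 5 of that time, and 108, 137, 98 and 129 without irradiated library 1, 4, 5 or 6. Genes lowered at 1 week were 97, 51 and 99 without sham library 3, 4 or 5, and 57, 89, 60 and 76 without irradiated library 1, 4, 5 or 6.

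The 550 genes were sorted by what their effects did at each time. In 183 genes the effect passed at 1 day and no longer at 1 week, which is the resolved class: 119 of them had been raised and 64 lowered. Another 8 were partly resolved, past the threshold at both times in the same direction but smaller at 1 week, and all 8 had been raised. Only 19 were rebound genes, past the threshold at both times with opposite signs. In 140 the effect passed at 1 week alone (late genes, 73 raised and 67 lowered), and in 200 neither effect passed on its own. That last count was 117, 123, 129 and 360 without sham library 1, 2, 4 or 6 at 1 day, 95 and 105 without irradiated library 2 or 3 at 1 day, and 128 without sham library 4 at 1 week. No gene passed at both times with the same sign and a larger size at 1 week. By the unadjusted p 4 genes did so, and no alternative setting gave any by the adjusted p. Outside the shift calls, 41 genes were persistent, with both effects past the threshold in the same direction and the shift not past it. A missed threshold does not show that an effect was 0 at 1 week, or that a persistent effect was equal at both times.

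**Figure D1:**
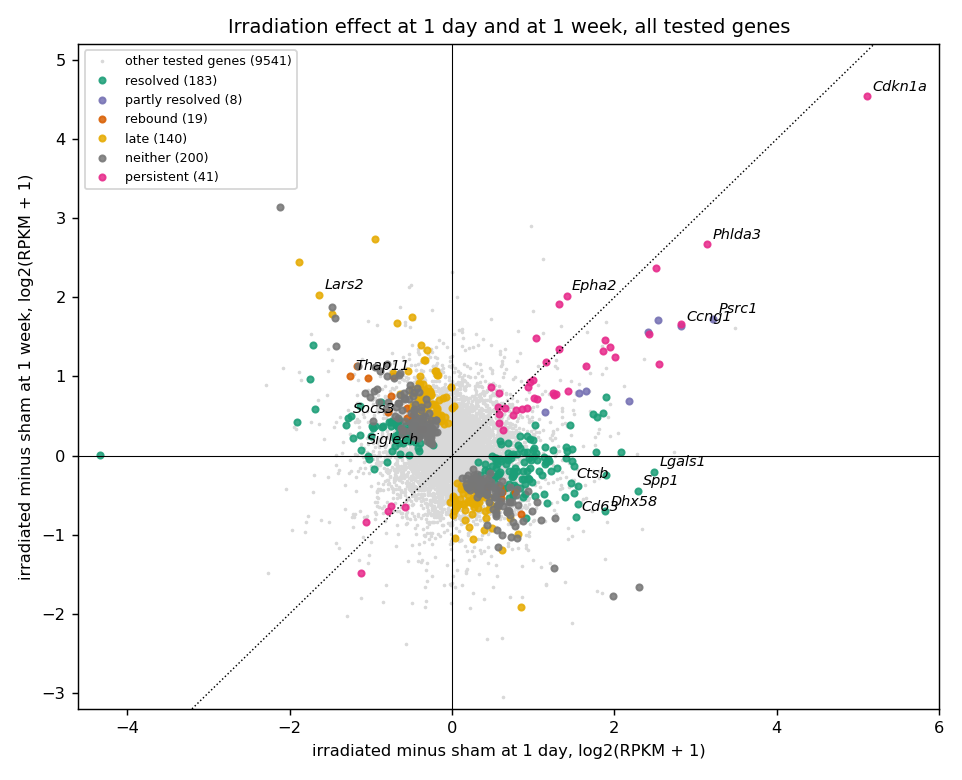
Each point is 1 of the 10132 tested genes, with the irradiated minus sham difference at 1 day on the horizontal axis and at 1 week on the vertical axis, both in log2(RPKM + 1). The dotted line marks equal effects. Cdkn1a and Phlda3 lie near it at the upper right, the 183 resolved genes spread along the horizontal axis, and the late and rebound genes lie mostly in the 2 quadrants of opposite sign.

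Most genes that passed at 1 day had estimates nearer to the sham level at 1 week, and 183 of the 435 were in the resolved class. The 294 genes raised at 1 day had a median effect of 0.83 then and 0.07 at 1 week, where the median of all tested genes was 0.05. Of these 294 genes, 286 lay nearer to the sham level at 1 week, as did 4798 of all 10132 tested genes. Of the 294, 44 were still raised at 1 week, 7 were lowered, and 134 had a lower shift. The estimate at 1 week was below 0 for 117 of them (39.8%, against 44% of all tested genes). The 141 genes lowered at 1 day went from a median of -0.67 to 0.07, and 5 of them were still lowered at 1 week and 12 raised. Because the raised and lowered genes were picked on the 1 day effect, part of their movement toward 0 follows from that choice.

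Most movement past the threshold was in the irradiated mice. Between 1 day and 1 week 1799 genes changed in irradiated microglia (17.8%), 1034 higher (10.2%) and 765 lower (7.55%). In sham microglia 1 gene did (0.00987%), Bhlhe41, a transcription repressor, named here after its value was seen. By the unadjusted p 450 genes were higher and 217 lower in shams at 1 week. Of the 119 resolved genes that had been raised and the 64 that had been lowered, 107 fell and 58 rose in the irradiated arm. Time after irradiation, age and any processing day cannot be told apart within an arm.

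Among the 550 shift genes, 504 (91.6%) had effects of opposite sign at the 2 times, against 56.3% of all tested genes. A large shift favours opposite signs by its definition, and most of these genes did not pass at both times. The resolved genes that had been raised had a median effect of 0.89 at 1 day and -0.15 at 1 week, and 88 of the 119 lay below the shams. The resolved genes that had been lowered had medians of -0.69 and 0.28, and 60 of the 64 lay above the shams. No resolved gene kept more than 50% of its 1 day effect in the same direction at 1 week. That count leaves out the size of estimates past the sham level. These reached -0.79 in genes that had been raised and 1.4 in genes that had been lowered. The class requires a shift that passed and a 1 week effect that did not, so a low count follows in part from the definition.

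Several library features bear on these counts. Reads on genes ranged from 1718013 to 3856777 per library, except for sham library 6 at 1 day, which had 175382 and stood apart on the first principal components. Without it the shift passed for 847 genes (446 higher, 401 lower), and 110 of the 119 resolved raised genes still had a lower shift. The share of reads on mt-Rnr2, the large mitochondrial ribosomal RNA, had medians of 3.53% in shams and 1.91% in irradiated libraries at 1 day, and 1.52% and 2.91% at 1 week. It thus reversed its order between the times, as a rebound gene does. With the logarithm of this share as a covariate, chosen after the data were seen, 65 shift calls were left (19 higher, 46 lower), and the median standard error of the shift was 0.38 in place of 0.33. Of the 119 resolved raised genes, 33 still had a lower shift with the covariate and all 119 kept its sign. The covariate follows the same 4 groups as the effect, so the share and the irradiation effect cannot be fully told apart.

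**Figure D2:**
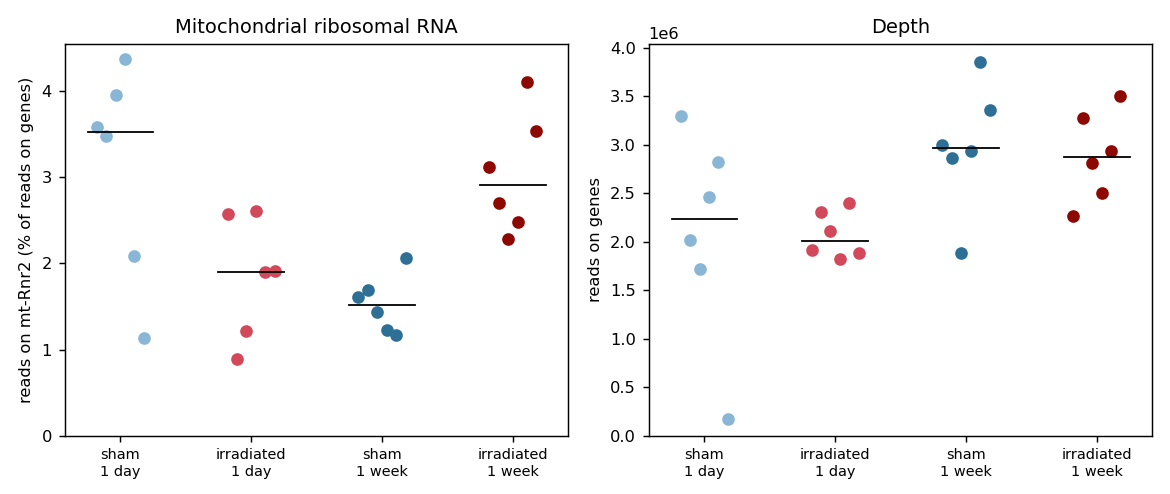
Points are single libraries of the 4 groups, with black lines at the medians. The left plot gives the percent of reads on genes that fell on mt-Rnr2, which was higher in shams at 1 day and in irradiated libraries at 1 week, and the right plot gives the reads on genes, where sham library 6 at 1 day lies far below the rest.

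The sorted cells carried the markers of microglia. The summed level of 10 microglial markers was 22300 to 32400 RPM in irradiated libraries at 1 day and 32800 to 46600 in the other 3 groups. Markers of neurons summed to at most 22.8 RPM in all libraries but 1. The highest sums were 542 RPM for astrocyte, 444 for neural progenitor, 314 for oligodendrocyte and 269 for perivascular macrophage markers. Lymphocyte markers had medians of 842 RPM in shams and 487 in irradiated libraries at 1 day, and 770 in both arms at 1 week. Most of that was Ighm, with medians of 748 and 441 RPM at 1 day and 705 and 709 at 1 week. The 15 monocyte and neutrophil markers had medians of 19.7 in shams and 47.8 in irradiated libraries at 1 day, and 17.9 and 16.3 at 1 week. Most of that was Plac8 (median 39.8 in irradiated libraries at 1 day), while S100a8, S100a9 and Ly6g were at 0 in all 4 groups. Ly6c2 had 0 reads in shams and 26 in irradiated libraries at 1 day, and 0 and 2 at 1 week. Ccr2 had 91 and 79 reads at 1 day and 194 and 199 at 1 week. The part of such cells in the shift was not tested. In such bulk samples, fewer cells of a state and less RNA per cell cannot be told apart.

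More p53 targets than members of any other list were raised at 1 week. Of 32 tested targets, 20 were raised at 1 day and 13 at 1 week, against 2.9% and 2.03% of all tested genes. The median effects of the list were 0.84 and 0.54. The shift was lower for 4, against 2.89% of all tested genes, and higher for none. Of the 32 targets, 10 were persistent and 24 had a shift below 0. The list's summed level was 1700 to 2110 RPM in shams and 4480 to 4970 in irradiated libraries at 1 day, and 1970 to 2380 against 3460 to 4190 at 1 week, so the groups did not overlap at either time. Sesn1 was the 1 target lowered at 1 day, by an effect of -0.59, and was at -0.11 at 1 week (named after its value was seen). With the mt-Rnr2 covariate 2 of the 4 lower shifts were left, and without sham library 6 at 1 day there were 6.

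Cdkn1a (chromosome 17, 29090979 to 29100722 in GRCm38) had the largest effects of the persistent genes. Its lowest, median and highest values were 1.52, 1.95 and 3.04 RPKM in shams at 1 day and 95.2, 99.6 and 124 in irradiated libraries. At 1 week they were 1.65, 2.54 and 6.16 in shams and 75.0, 83.3 and 116 in irradiated libraries. No library of one arm reached the other at either time, and the irradiated libraries of the 2 times overlapped. The effect was 5.11 ± 0.25 (SE) at 1 day and 4.54 ± 0.25 at 1 week, with a shift of -0.57 ± 0.35 (adjusted p = 0.372).

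Phlda3, a p53-induced inhibitor of Akt signalling, went from at most 0.329 RPKM in shams to between 6.05 and 13.3 in irradiated libraries at 1 day, and from at most 0.0985 to between 3.95 and 8.19 at 1 week. Its effects were 3.14 and 2.67, and its shift of -0.47 ± 0.25 (adjusted p = 0.296) changed sign to 0.19 with a pseudocount of 0.1 and to 1.23 with voom on the recovered reads. The shams held 6 reads of it at 1 day and 1 read at 1 week, so the size of its effect depends on the pseudocount. Sesn2, a stress-induced inhibitor of mTORC1, had effects of 2.42 and 1.54 (shift adjusted p = 0.133). Fndc10 had effects of 2.52 and 2.37, and its shift of -0.14 ± 0.52 changed sign under 6 alternatives given in the closing section. Mdm2, the ligase that degrades p53, had effects of 1.43 and 0.81, and the pro-death targets Bax and Bbc3 had 2.55 and 2.01 at 1 day and 1.15 and 1.24 at 1 week. These 3 were named after their values were seen, and none passed for the shift (adjusted p = 0.107, 0.0785 and 0.106).

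Ccng1 (chromosome 11, 40748552 to 40755311), which encodes the p53-induced cyclin G1, was partly resolved. It stood at 7.49, 9.10 and 9.80 RPKM (lowest, median, highest) in shams and 58.1, 66.3 and 84.8 in irradiated libraries at 1 day. The 1 week values were 7.91, 10.1 and 12.9 in shams and 29.3, 31.9 and 39.6 in irradiated libraries. The irradiated libraries of 1 week lay above all shams and below all irradiated libraries of 1 day. The shift was -1.18 ± 0.16 (adjusted p = 7.64e-06), from an effect of 2.81 to 1.64.

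Psrc1, a spindle protein, fell from a range of 6.17 to 17.3 RPKM in irradiated libraries at 1 day to 2.10 to 4.32 at 1 week, and shams of both times stayed at or below 0.880. Its shift was -1.48 ± 0.25 (adjusted p = 0.000225). The shams held 15 and 18 reads of Psrc1, and the call was lost with a pseudocount of 0.1 (adjusted p = 0.132) and with voom (0.556). Slc19a2, a thiamine transporter, went from an effect of 2.18 to 0.69 (shift -1.496 ± 0.24, adjusted p = 6.25e-05). Trp53inp1, which promotes p53-dependent death and autophagy, went from 1.65 to 0.82 (shift -0.83 ± 0.23, adjusted p = 0.0275). That call was lost with the mt-Rnr2 covariate (adjusted p = 0.349), a pseudocount of 0.1 (0.082), no filter (0.0603) and the 24 libraries alone (0.066). The other partly resolved genes, named because the class is small, were Matn1, Fam212b, Mmp2 and Ephx1, with effects of 2.54, 2.41, 1.56 and 1.14 at 1 day and 1.71, 1.57, 0.79 and 0.55 at 1 week. Plk2, a p53-induced polo-like kinase, was the 1 listed target in the resolved class, with an effect of 1.73 at 1 day and 0.53 at 1 week (shift adjusted p = 0.0264). The Plk2 call was lost with the covariate (adjusted p = 0.362), pseudocounts of 0.1 (0.104) and 5 (0.0608), no filter (0.0609) and voom (0.0766). Of the 24 fits that left out 1 library, 3 lost Plk2 (adjusted p up to 0.0545) and 7 lost Trp53inp1 (up to 0.0631).

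Not all persistent genes were listed p53 targets. Ccl2, the chemokine that attracts monocytes, was at 7.42, 9.07 and 16.1 RPKM in shams and 31.0, 38.4 and 47.5 in irradiated libraries at 1 day. The 1 week values were 13.3, 14.9 and 22.2 in shams and 31.0, 39.9 and 69.6 in irradiated libraries. The arms did not overlap at either time, and the shift was -0.55 ± 0.42 (adjusted p = 0.492). Ak1, an adenylate kinase, had effects of 1.94 and 1.38, and Sulf2, which removes sulfate from heparan sulfate, 1.89 and 1.46. Sulf2 shares positions with Ncoa3, and its shift of -0.43 did not pass (adjusted p = 0.0641). It did pass with a pseudocount of 5 (adjusted p = 0.00734), with median-of-ratios scaling (0.0254), with the GC and length trend removed (0.0383) with the mt-Rnr2 covariate (0.0418) and without irradiated library 6 at 1 day (0.0482) or 5 at 1 week (0.0379), so its place among the persistent genes depends on the setting. Epha2, an ephrin receptor, had the larger estimate at 1 week, 2.02 against 1.41, and the difference did not pass (0.61 ± 0.30, adjusted p = 0.247). Of the 41 persistent genes 5 were lowered: Ccl9, Tnfrsf17, Klrd1, Rnf122 and Il6st, with effects between -0.58 and -1.12 at 1 day and between -0.63 and -1.48 at 1 week.

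**Figure D3:**
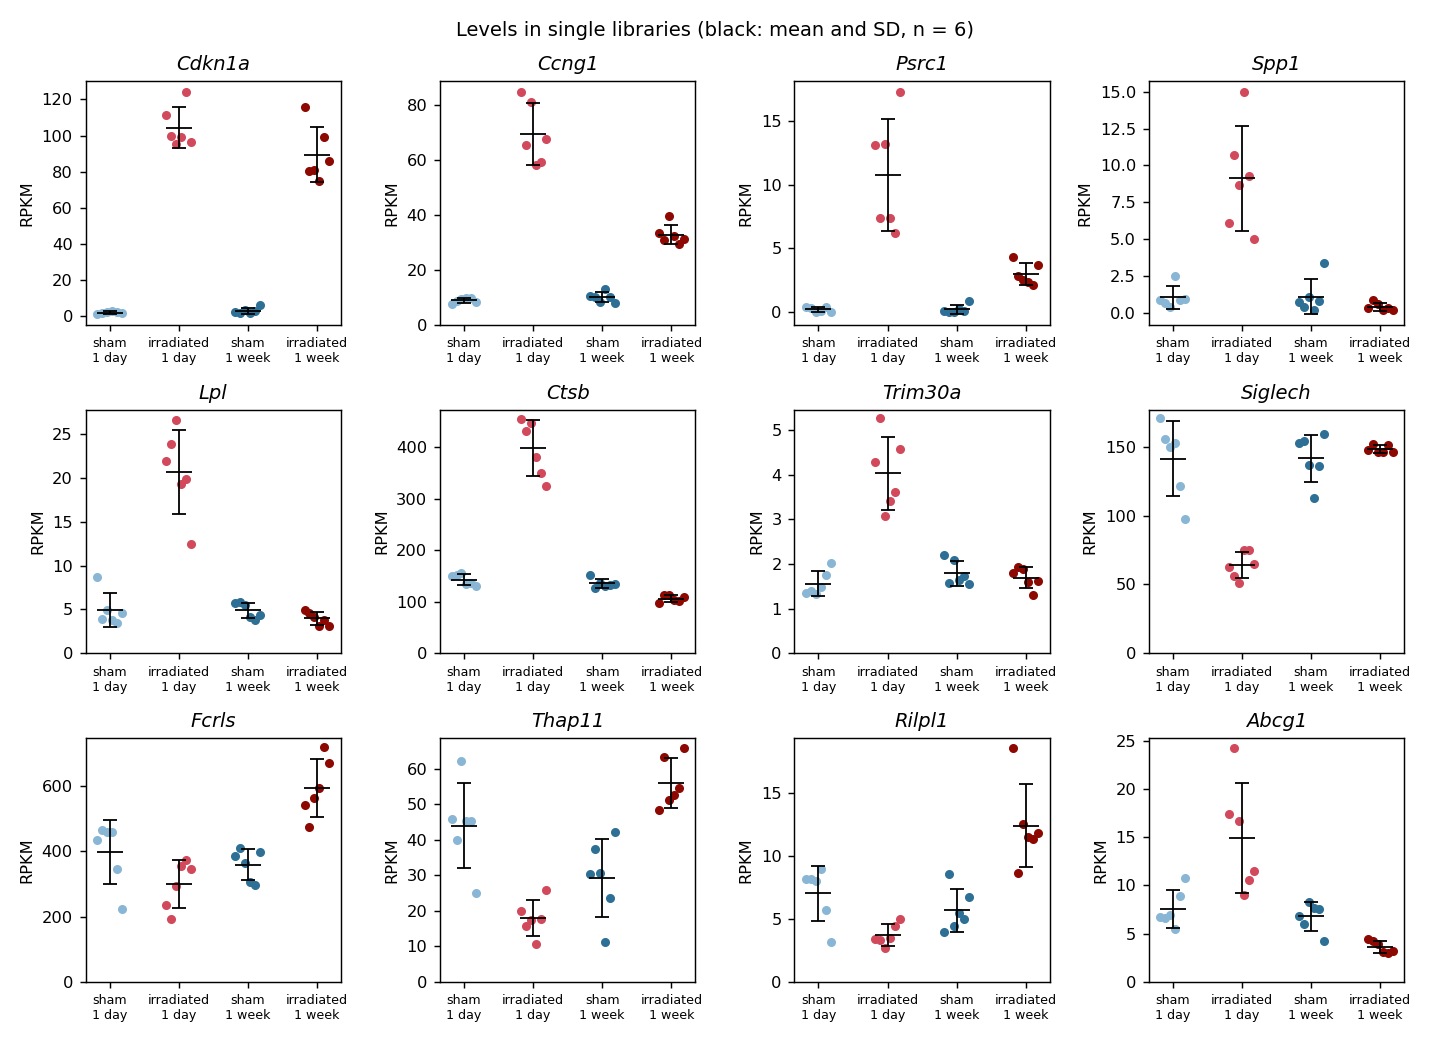
RPKM of 12 genes in each library (points) of the 4 groups, with the mean and SD of 6 libraries in black and a linear axis per gene. Cdkn1a stays high at 1 week, Ccng1 and Psrc1 stand between the shams and their 1 day level, Spp1, Lpl, Ctsb and Trim30a are near or below the shams, Siglech is back in the sham range, and Fcrls, Thap11 and Rilpl1 lie above it.

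The disease-associated state is the reactive program named for microglia around plaques and dying cells. Of 29 tested members 13 were raised at 1 day. None passed as raised at 1 week, when 3 were lowered. Among all tested genes 2.9% were raised at 1 day, and 2.03% were raised and 1.51% lowered at 1 week. The shift was lower for 15 and higher for none, against 2.89% lower among all tested genes, and the median effect went from 0.70 to -0.19. The 15 were Ank, Axl, Cd63, Cd68, Cst7, Ctsb, Fth1, Gpnmb, Itgax, Lgals1, Lgals3, Lilrb4a, Lpl, Spp1 and Timp2, with shifts from -0.55 to -2.73. Of them 12 were resolved, 1 was late and 2 passed at neither time. The count was also 15 without sham library 6 at 1 day, and 10 with the mt-Rnr2 covariate. The shift did not pass for 14 of the 29 members. Apoe, Trem2 and Tyrobp, also genes of this state, had shifts of -0.63, 0.06 and 0.27 that did not pass (adjusted p = 0.348, 0.922 and 0.627). They were named after their values were seen.

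Spp1 (chromosome 5, 104435118 to 104441050) encodes osteopontin, a secreted matrix protein of phagocytic microglia. It was at 0.392, 0.908 and 2.53 RPKM in shams and 5.005, 8.99 and 15.0 in irradiated libraries at 1 day, which did not overlap. At 1 week it was at 0.229, 0.809 and 3.41 in shams and 0.192, 0.358 and 0.925 in irradiated libraries, which did. The shift was -2.73 ± 0.34 (adjusted p = 1.13e-06), from 2.29 ± 0.24 to -0.45 ± 0.24. The groups held 83, 675, 124 and 46 reads of it, in the same order.

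Lgals1, which encodes the glycan-binding galectin-1, went from at most 1.40 RPKM in shams to between 3.83 and 8.86 in irradiated libraries at 1 day, and had at most 1.53 in irradiated libraries at 1 week (shift -2.69 ± 0.37, adjusted p = 7.01e-06). Lpl, the lipoprotein lipase, was at 3.40, 4.30 and 8.70 RPKM in shams and 12.5, 20.9 and 26.6 in irradiated libraries at 1 day, then at 3.85, 4.94 and 5.81 and at 3.14, 3.97 and 4.98 at 1 week. Its 1 week arms overlapped, and the shift was -2.14 ± 0.28 (adjusted p = 2.43e-06). Axl, a receptor for dying cells, had medians of 0.555, 2.32, 0.739 and 0.256 RPKM in the same order of groups (shift -1.33 ± 0.22, adjusted p = 0.000143).

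Some lysosomal genes also had lower shifts, and 3 of these were in both lists (Cd63, Cd68 and Ctsb). Of 35 tested members 10 were raised at 1 day (2.9% of all tested genes) and 1 at 1 week (2.03% of all tested genes). The shift was lower for 12, against 2.89% lower among all tested genes, higher for none, and did not pass for 23. With the mt-Rnr2 covariate 5 lower shifts were left. Without sham library 6 at 1 day 13 were lower and 3 higher.

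Ctsb (chromosome 14, 63122462 to 63145919), the protease cathepsin B, had the smallest adjusted p of all shifts named here. It was at 130, 143 and 157 RPKM in shams and 324, 406 and 456 in irradiated libraries at 1 day. At 1 week Ctsb was at 126, 134 and 152 in shams and 97.1, 107 and 113 in irradiated libraries. Every irradiated library lay above every sham at 1 day (as for 2.29% of tested genes) and below every sham at 1 week (1.12%). The shift was -1.81 ± 0.15 (adjusted p = 6.11e-11) and -1.54 with the covariate (adjusted p = 7.57e-08). The 1 week effect of -0.35 ± 0.11 did not pass (adjusted p = 0.0628), so that Ctsb counted as resolved and not as rebound. It shares positions with Fdft1, and without strand their reads cannot be told apart there.

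Lamp1, a lysosomal membrane protein, showed the same order of libraries, with medians of 59.6 and 88.3 RPKM at 1 day and 55.5 and 48.4 at 1 week (shift -0.80 ± 0.13, adjusted p = 0.000167, lost with the covariate at 0.0576). Cd63, a tetraspanin of late endosomes, was at 21.2 to 30.2 and 45.3 to 160 RPKM at 1 day and at 20.03 to 34.0 and 12.99 to 21.98 at 1 week, sham before irradiated. Its shift was -2.30 ± 0.35 (adjusted p = 4.08e-05). Ctsc, which encodes the cathepsin that activates serine proteases, fell back from a median of 30.3 RPKM in irradiated libraries at 1 day to 19.0 at 1 week, against 17.9 and 22.7 in shams (shift adjusted p = 1.24e-05).

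Of 12 tested genes of lipid efflux and storage, 4 were raised at 1 day and 2 were lowered at 1 week. Among all tested genes these shares were 2.9% and 1.51%. The shift was lower for 5 (Abca1, Abcg1, Lpl, Mylip and Npc2), against 2.89% of all tested genes. Lpl was also in the disease-associated list and Npc2 in the lysosomal list. In all, 27 genes had a lower shift in any of these 3 lists. Abca1 and Abcg1 encode the transporters that export cholesterol to lipoproteins. Abca1 had medians of 4.33 and 7.64 RPKM at 1 day and 4.78 and 3.40 at 1 week (shift -1.05 ± 0.19, adjusted p = 0.000386). Abcg1 was at 5.43, 6.81 and 10.8 RPKM in shams and 8.96, 14.1 and 24.2 in irradiated libraries at 1 day, and at 4.22, 7.22 and 8.29 and 2.94, 3.54 and 4.41 at 1 week. It was a rebound gene, raised by 0.85 at 1 day and lowered by an effect of -0.74 at 1 week. The arms touched at both times, and its shift of -1.59 ± 0.27 (adjusted p = 0.000208) was lost with the covariate (adjusted p = 0.0851). With the covariate 2 lower shifts of the efflux list were left. None of the 12 tested cholesterol synthesis genes passed for the shift.

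Most tested interferon-stimulated genes, which a cell induces when it senses type I interferon, were raised at 1 day, and none passed the threshold at 1 week. Of 29 tested members 20 were raised at 1 day and none at 1 week, against 2.9% and 2.03% of all tested genes. The list's median effect was 0.95 at 1 day and 0.18 at 1 week, against 0 and 0.05 over all tested genes. The summed level of the list was 807 to 1140 RPM in shams and 1950 to 2880 in irradiated libraries at 1 day, and 733 to 1030 and 832 to 1120 at 1 week. The shift was lower for 11, all of them resolved, against 2.89% lower among all tested genes. It was higher for none, and 28 of the 29 had a shift below 0. Among the 11 were Ifit3, Ifit3b, Mx1, Mx2, Rsad2, Slfn2, Sp100 and Trim30a. With the mt-Rnr2 covariate 3 were left, and without sham library 6 at 1 day there were 12.

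The interferon-stimulated response element is a promoter sequence through which interferon acts, and its core can be written as 2 copies of GAAA with 2 bases of any kind between them. It was searched on both strands in the 250 bases before each start site in RefSeq promoters (GRCm38.p6). It was found in 12 of the 21 tested interferon-stimulated genes with an entry (57.1%), in 5 of the 8 of these with a lower shift (62.5%), in 183 of 5666 tested genes with an entry (3.23%) and in 936 of 27025 genes in all (3.46%). The share in members with a lower shift was thus near that of the whole list. The stretches of the named members, which were picked for a lower shift, are shown as examples. They are written on the strand of the gene, and capitals mark the match, which lies on the other strand in each and so reads in reverse complement. They are Ifit3b at chr19:34607707-34607956 (plus strand), Rsad2 at chr12:26456453-26456702 (minus strand) and Trim30a at chr7:104465194-104465443 (minus strand).
Ifit3b: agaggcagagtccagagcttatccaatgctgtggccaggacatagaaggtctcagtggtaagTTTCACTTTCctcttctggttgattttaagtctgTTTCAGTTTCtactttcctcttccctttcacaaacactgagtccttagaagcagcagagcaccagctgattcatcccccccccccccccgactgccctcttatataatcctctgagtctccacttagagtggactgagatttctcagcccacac
Rsad2: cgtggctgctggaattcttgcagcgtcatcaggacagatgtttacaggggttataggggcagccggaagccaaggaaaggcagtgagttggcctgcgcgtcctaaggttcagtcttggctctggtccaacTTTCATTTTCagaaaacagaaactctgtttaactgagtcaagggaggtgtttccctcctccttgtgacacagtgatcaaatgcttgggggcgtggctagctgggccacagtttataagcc
Trim30a: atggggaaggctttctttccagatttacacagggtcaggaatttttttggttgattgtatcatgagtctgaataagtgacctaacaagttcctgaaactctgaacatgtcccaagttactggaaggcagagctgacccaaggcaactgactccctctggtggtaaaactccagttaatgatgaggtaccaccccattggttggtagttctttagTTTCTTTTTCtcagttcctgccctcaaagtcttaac
Ifit3b held 2 matches, 145 to 188 bases before the start, Rsad2 1 match at 111 to 120 bases, and Trim30a 1 match at 27 to 36 bases. A second annotated start of Trim30a held none. A match is a description of the letters and was not tested for binding.

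Trim30a, which encodes a ubiquitin ligase of immune cells, had the smallest adjusted p of the list. It was at 1.33, 1.44 and 2.03 RPKM in shams and 3.07, 3.94 and 5.26 in irradiated libraries at 1 day, which did not overlap. At 1 week it was at 1.54, 1.68 and 2.198 in shams and 1.31, 1.71 and 1.94 in irradiated libraries, which did. The shift was -1.02 ± 0.14 (adjusted p = 7.64e-06), from 0.97 to -0.05. Ifit3b, of the family that binds foreign RNA, was at most 0.449 RPKM in shams and between 0.872 and 2.93 in irradiated libraries at 1 day, and at most 0.472 in either arm at 1 week (shift -1.26 ± 0.27, adjusted p = 0.00313). It rested on 16, 119, 22 and 16 reads per group, and near-identical members of its family can share reads.

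Rsad2, the antiviral enzyme viperin, had medians of 0.604 and 5.42 RPKM at 1 day and 0.409 and 0.378 at 1 week (shift -1.73 ± 0.38, adjusted p = 0.00423). Its 1 day arms overlapped through sham library 6, at 3.33 RPKM, and the call was lost with the covariate (adjusted p = 0.222). Dhx58, which encodes an RNA sensor and lies outside the list, had medians of 2.52, 13.6, 4.56 and 2.36 RPKM in shams and irradiated libraries at 1 day and at 1 week. Its shift was -2.59 ± 0.32 (adjusted p = 1.13e-06). It shares positions with its antisense gene Dhx58os.

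Isg15, Irf7 and Bst2 had 1 day effects of 1.90, 1.90 and 1.27 and 1 week effects of 1.69, 1.10 and 1.13, none of which passed at 1 week. Their shifts did not pass either (adjusted p = 0.935, 0.467 and 0.937). These 3 were named after their values were seen, as members that the list's median does not describe.

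**Figure D4:**
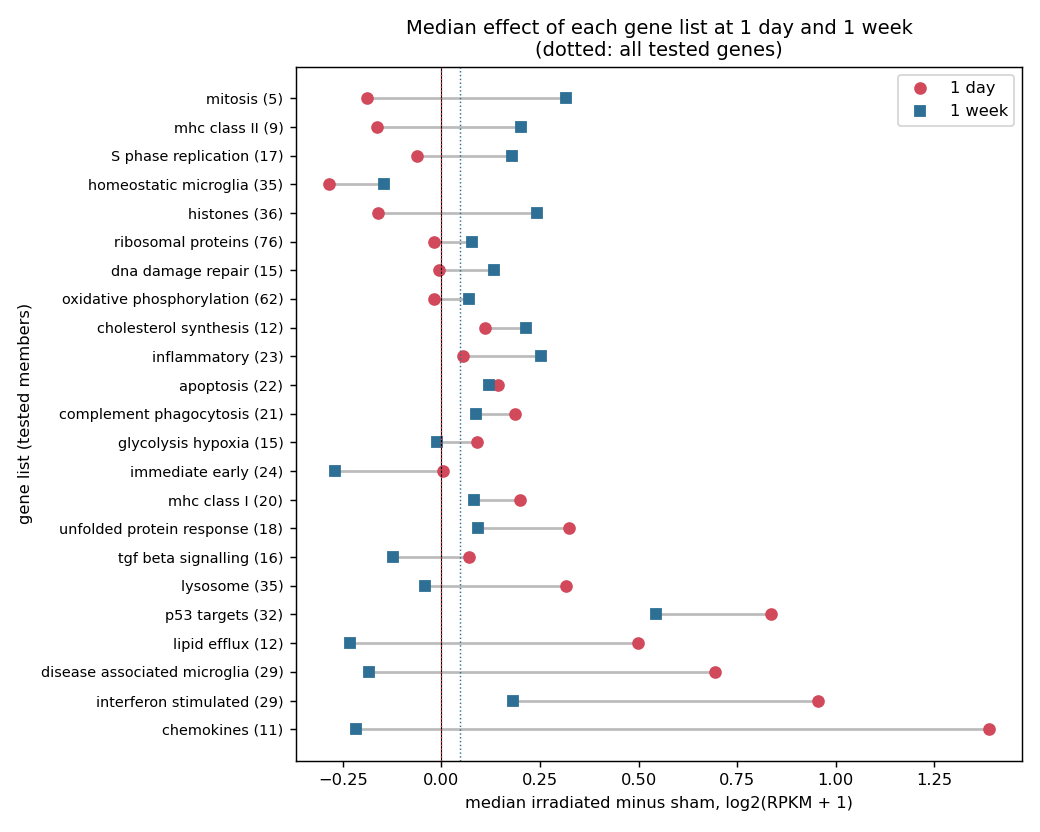
For each gene list, circles give the median irradiated minus sham difference over its tested members at 1 day and squares the same at 1 week, in log2(RPKM + 1), ordered by the median shift. Dotted lines mark the medians of all tested genes. The p53 targets stay farthest to the right at 1 week, while the immediate early, lipid efflux, chemokine, disease-associated, homeostatic and TGF-beta lists end at medians between -0.27 and -0.12.

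Homeostatic genes shifted mostly upward. Of 35 tested members 10 were lowered at 1 day and 1 was raised, while at 1 week 3 were lowered and 2 raised. Among all tested genes 1.39% were lowered and 2.9% raised at 1 day, and 1.51% lowered and 2.03% raised at 1 week. The shift was higher for 8 (Cx3cr1, Fcrls, Hpgd, Sall1, Selplg, Siglech, Slc2a5 and Tmem119), against 2.54% higher among all tested genes. It was lower for 1. Of the 8, 6 were resolved, and Fcrls and Tmem119 were late. With the mt-Rnr2 covariate 2 higher shifts were left, and without sham library 6 at 1 day there were 10 higher and 2 lower. The list's median shift of 0.28 compares with 0.05 for all tested genes, and 12 of the 35 shifts were below 0. Its median effect was -0.285 at 1 day and -0.147 at 1 week. The summed level did not return to that of the shams. It was 138000 to 182000 RPM in shams and 103000 to 173000 in irradiated libraries at 1 day, which overlapped. At 1 week it was 133000 to 194000 and 93800 to 130000, which did not.

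Siglech, a sialic acid receptor that marks microglia among macrophages, was at 97.6, 152 and 171 RPKM in shams and 51.2, 63.9 and 75.3 in irradiated libraries at 1 day. By 1 week it was at 113, 145 and 159 in shams and 146, 147 and 152 in irradiated libraries. The arms were apart at 1 day (below every sham, as for 0.691% of tested genes), and at 1 week the irradiated libraries lay within the sham range. The shift was 1.19 ± 0.16 (adjusted p = 4.18e-06) and 0.88 with the covariate (adjusted p = 0.0024).

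Slc2a5, the fructose transporter GLUT5 of microglia, had medians of 24.7 and 11.6 RPKM at 1 day and 27.2 and 34.7 at 1 week, with overlapping arms at both times (shift 1.32 ± 0.24, adjusted p = 0.000416). Sall1, the transcription factor that maintains microglial identity, had medians of 33.0 and 19.8 RPKM and then 32.4 and 42.9 (shift 1.20 ± 0.26, adjusted p = 0.00333). Both calls were lost with the covariate (adjusted p = 0.0719 and 0.272). Fcrls, an Fc receptor-like protein of microglia, was at 192 to 375 RPKM in irradiated libraries at 1 day against 222 to 465 in shams, and at 475 to 722 against 296 to 409 at 1 week. Only its 1 week effect passed (0.72 ± 0.17, adjusted p = 0.0135), and its shift of 1.12 ± 0.25 (adjusted p = 0.00384) was lost with the covariate (adjusted p = 0.348). P2ry12, the purinergic receptor of surveying microglia, went from -0.79 to -0.31 with a shift that did not pass (adjusted p = 0.121). It was named after its value was seen.

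Chemokine genes varied more among members. Of 11 tested, 6 were raised at 1 day, against 2.9% of all tested genes, and 1 of these also at 1 week (2.03%). In the other direction 1 was lowered at 1 day and 2 at 1 week, against 1.39% and 1.51%. The list's median effect was 1.39 at 1 day and -0.22 at 1 week. All 11 had a shift below 0, with a median of -0.82 against 0.05 over all tested genes. Only Cxcl16, a membrane-bound chemokine, passed for the shift, with medians of 3.52 and 10.5 RPKM at 1 day and 4.78 and 3.06 at 1 week (shift -1.92 ± 0.37, adjusted p = 0.00107). It shares positions with Zmynd15. Among 23 inflammatory genes Il1a, which encodes the cytokine interleukin 1 alpha, was lower (shift -1.62 ± 0.48, adjusted p = 0.039), and 2 were higher. Those were Socs3, the feedback inhibitor of STAT3 signalling, and Tgfb1, the growth factor on which homeostatic microglia depend. Among all tested genes 2.89% had a lower and 2.54% a higher shift.

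Socs3 was at 54.6 to 137 RPKM in shams and 17.1 to 46.0 in irradiated libraries at 1 day, and at 66.2 to 165 and 77.7 to 194 at 1 week. Its shift was 1.76 ± 0.41 (adjusted p = 0.00662). Tgfb1 had medians of 16.9 and 11.02 RPKM and then 18.2 and 23.5 (shift 0.87 ± 0.20, adjusted p = 0.00749). The calls of Il1a, Socs3 and Tgfb1 were lost with the covariate (adjusted p = 0.715, 0.138 and 0.26). The Il1a call was also lost in 15 of the 24 fits that left out 1 library (adjusted p up to 0.0795), without a filter (0.0929) and with the GC and length trend removed (0.0526).

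Receptors of complement and of dying cells split. Of 21 tested genes the shift was lower for 4 (Axl, C3ar1, C5ar1 and Fcgr4) and higher for 2 (Itgam and Mertk). The shares over all tested genes were 2.89% lower and 2.54% higher. With the covariate 2 lower and 0 higher were left. Axl was also counted in the disease-associated list. C3ar1, the receptor for the complement fragment C3a, was at 34.3, 40.1 and 42.3 RPKM in shams and 81.5, 105 and 163 in irradiated libraries at 1 day. At 1 week it was at 36.0, 38.6 and 40.6 and at 36.5, 42.1 and 43.4. The 1 week arms overlapped, and the shift was -1.39 ± 0.17 (adjusted p = 1.13e-06, and 0.000386 with the covariate). Itgam, the integrin subunit of complement receptor 3, lay below every sham at 1 day, with medians of 2.30 against 3.41 RPKM, and above every sham at 1 week, with 4.37 against 3.14 (shift 0.84 ± 0.19, adjusted p = 0.00496, and 0.336 with the covariate). Only its 1 day effect passed.

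Some chaperones of the endoplasmic reticulum had lower shifts. Of 18 tested unfolded protein response genes 7 were raised at 1 day (2.9% of all tested genes) and none at 1 week, and the shift was lower for 4 (Calr, Canx, Hsp90b1 and Sdf2l1), against 2.89% lower among all tested genes, and did not pass for 14. Only Hsp90b1 was left with the mt-Rnr2 covariate, and the calls of Calr, Canx and Sdf2l1 were lost (adjusted p = 0.0545, 0.0518 and 0.26). Hsp90b1, the chaperone GRP94, had medians of 30.8 and 55.1 RPKM at 1 day and 42.3 and 37.0 at 1 week (shift -0.99 ± 0.17, adjusted p = 0.000196). Hspa5, the chaperone BiP that marks this response, did not pass (shift -0.15, adjusted p = 0.758), and was named after its value was seen. In the peptide loading and MHC class I list, Calr and Pdia3 were the 2 of 20 with a lower shift. In the class II list H2-Oa, a regulator of peptide exchange, was the 1 of 9 with a higher shift. Among all tested genes 2.89% had a lower and 2.54% a higher shift. With the covariate no call was left in either of these 2 lists.

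The rebound class was small. Of its 19 genes 7 went from raised to lowered (Abcg1, Canx, Lipa, Mgea5, Serpine2, Smim3 and Sppl2a) and 12 from lowered to raised. The median effects of the 7 were 0.60 at 1 day and -0.46 at 1 week, and those of the 12 were -0.64 and 0.60. Serpine2, a secreted protease inhibitor, was at 27.9, 32.8 and 40.5 RPKM in shams and 45.4, 50.5 and 55.7 in irradiated libraries at 1 day. By 1 week it was at 25.4, 31.4 and 41.4 and at 20.3, 22.4 and 32.3. The arms were apart at 1 day and overlapped at 1 week, and the shift was -0.998 ± 0.17 (adjusted p = 0.000159). Sppl2a, a protease of endosomal membranes, had medians of 8.14 and 12.8 RPKM and then 8.34 and 5.72 (shift -1.08 ± 0.17, adjusted p = 6.25e-05). Lipa, the lysosomal acid lipase, had effects of 0.60 and -0.54.

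In the other direction Thap11, a zinc finger protein, was at 25.1, 45.4 and 62.4 RPKM in shams and 10.6, 17.6 and 25.9 in irradiated libraries at 1 day. By 1 week it was at 11.2, 30.5 and 42.3 and at 48.5, 53.7 and 66.0. Irradiated libraries lay above every sham at 1 week (as for 2.06% of tested genes), while the 1 day arms touched. The shift was 2.26 ± 0.37 (adjusted p = 0.000159), and 1.64 with the covariate (adjusted p = 0.0418). Rilpl1, which interacts with Rab GTPases, had medians of 8.10 and 3.43 RPKM and then 5.23 and 11.7 (shift 1.73 ± 0.30, adjusted p = 0.000212, lost with the covariate at 0.0868). Csad, an enzyme of taurine synthesis, had 4.23 and 1.999 RPKM and then 4.05 and 7.37 (shift 1.497 ± 0.26, adjusted p = 0.000227). For Thap11, Rilpl1 and Csad the shams at 1 week had lower medians than those at 1 day, and no sham change passed the threshold.

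The number of rebound genes depended on single libraries and settings. Without sham library 6 at 1 day there were 35. Leaving out sham library 4 at 1 week gave 3, and irradiated library 5 or 6 at 1 week gave 4 each. Sham library 5 at 1 week gave 9, sham library 1 or irradiated library 1 at 1 week 10 each, sham library 3 at 1 week or irradiated library 3 at 1 day 11 each, and sham library 4 at 1 day or irradiated library 4 at 1 week 12 each. With the mt-Rnr2 covariate there was none. The resolved class ranged from 123 to 244 over the same omissions, and had 50 genes with the covariate, 36 of them among the 183.

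Late genes were raised and lowered in like numbers. The 73 raised at 1 week had a median effect of 0.73 then and -0.31 at 1 day, and 71 of them lay below the shams at 1 day. The 67 lowered at 1 week had medians of -0.59 and 0.26, and 66 lay above the shams at 1 day. So nearly all late genes had estimates of opposite sign at 1 day that did not pass. Median GC content of the transcripts was 51.9% for the raised and 45.5% for the lowered late genes, and 49.6% for all tested genes. With the trend on GC and length removed, an alternative chosen after the data were seen, 105 late genes were left.

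A few late genes belong to the cell cycle. Mcm6, a subunit of the replicative helicase, was at 0.307, 0.407 and 0.730 RPKM in shams and 0.927, 1.39 and 2.33 in irradiated libraries at 1 week, which did not overlap. At 1 day it was at 0.215, 0.719 and 1.15 and at 0.193, 0.258 and 0.465. The shift was 1.12 ± 0.20 (adjusted p = 0.000278, and 0.00326 with the covariate), and the groups held 238, 107, 230 and 712 reads. Cdca3, a mitotic ligase subunit, was at most 0.637 RPKM in shams and at least 1.24 in irradiated libraries at 1 week (shift 1.19 ± 0.32, adjusted p = 0.0203). Hist1h1b, a replication-dependent linker histone, rested on 12, 3, 3 and 43 reads per group (shift 2.24 ± 0.60, adjusted p = 0.0215). Of the lists, 2 of 17 tested S phase genes, 1 of 5 mitosis genes and 1 of 36 histone genes had a higher shift and none a lower one, near the 2.54% of all tested genes for the histones. The filter left 17 of 50 listed S phase genes and 5 of 52 mitosis genes. For Cdca3 the irradiated libraries at 1 week met it alone. Hist1h1b had a median of 3.63 RPKM there, against at most 0.750 in the other groups. Mcm6 reached at most 1.15 RPKM in the other groups of these 2 times. Mcm6, Cdca3 and Hist1h1b could thus enter the test mainly through the group where they were high, so their calls say little about the lists. Without sham library 6 at 1 day, 1 S phase gene and 3 histones had a higher shift. The calls of Cdca3 and Hist1h1b were lost with the covariate (adjusted p = 0.274 and 0.349).

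Casp8 and Bid, which carry death receptor signals to the mitochondria, were the 2 of 22 apoptosis genes with a higher shift. Among all tested genes 2.54% had a higher and 2.89% a lower shift. Casp8 was at 2.24 to 3.84 RPKM in shams and 4.33 to 7.20 in irradiated libraries at 1 week, and at 2.19 to 3.41 and 1.94 to 3.07 at 1 day (shift 1.03 ± 0.27, adjusted p = 0.0162). Bid had medians of 4.004 and 5.51 RPKM at 1 week and 3.39 and 2.49 at 1 day (shift 0.81 ± 0.19, adjusted p = 0.00609), and shares positions with Bcl2l13. Both calls were lost with the covariate (adjusted p = 0.639 and 0.356). Bcl2a1b, which encodes an inhibitor of cell death and has close copies that can share its reads, was the 1 apoptosis gene with a lower shift (-1.38 ± 0.36, adjusted p = 0.0184), and this call was lost with the covariate too (adjusted p = 0.274).

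Lars2, the mitochondrial leucyl-tRNA synthetase, had the largest shift among late genes other than predicted and small RNA genes, at 3.67 ± 0.73 (adjusted p = 0.00155). Its medians were 55.9 and 15.5 RPKM at 1 day and 26.7 and 105 at 1 week. Reads on mt-Rnr2 and on Rn18s-rs5, a ribosomal RNA locus, moved with it: the medians of Rn18s-rs5 were 2110 and 1030 RPM at 1 day and 1500 and 3160 at 1 week. With the mt-Rnr2 covariate the shift of Lars2 was 0.98 (adjusted p = 0.318). Il10ra, the receptor of the cytokine interleukin 10, had medians of 49.4 and 30.1 RPKM and then 41.0 and 62.7 (shift 1.09 ± 0.22, adjusted p = 0.00206). Among lowered late genes Efhd2, a calcium-binding protein, was at 45.6 to 62.5 RPKM in shams and 22.5 to 39.8 in irradiated libraries at 1 week (shift -1.41 ± 0.28, adjusted p = 0.0016). Ski, a repressor of TGF-beta signalling, lay below every sham at 1 week, with medians of 14.7 and 9.43 RPKM (shift -0.84 ± 0.16, adjusted p = 0.000654). Of 16 tested genes of that pathway, Ski and Axl had lower shifts and Tgfb1 and Eng higher ones, of which Axl alone passed with the covariate. The shares over all tested genes were 2.89% lower and 2.54% higher. Axl and Tgfb1 were also counted in lists above. The calls of Il10ra, Efhd2 and Ski were lost with the covariate (adjusted p = 0.231, 0.253 and 0.119).

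The number of late genes also depended on single libraries. It was 197 without sham library 6 at 1 day and 215 without irradiated library 2 at 1 week. It was 40 without sham library 4, 46, 47, 72 and 80 without irradiated libraries 5, 1, 6 and 4, and 70, 93 and 93 without sham libraries 5, 1 and 3, all of 1 week. With the covariate 4 were left.

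The lists of DNA repair (15 tested), cholesterol synthesis (12), glycolysis and hypoxia (15) and immediate early genes (24) had no shift past the threshold in either direction. Ribosomal proteins had 1 higher and 1 lower of 76, and oxidative phosphorylation 1 higher and 2 lower of 62, shares close to those of all tested genes. Genes of the highest shift included some driven by few reads or by 1 library. Ighj1, a short immunoglobulin joining segment, rested on 35, 4, 33 and 33 reads (shift 4.34 ± 1.26, adjusted p = 0.0332, lost with the covariate at 0.0836 and in 9 of the 24 fits that left out 1 library). Wdr24, a subunit of a complex that regulates mTORC1, reached 47.1 RPKM in 1 sham library at 1 day and 54.1 in 1 irradiated library at 1 week, against medians of 4.91 and 3.84 in those groups. Its call (adjusted p = 0.0469) was lost in 16 of those 24 fits and with the covariate (0.27).

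**Figure D5:**
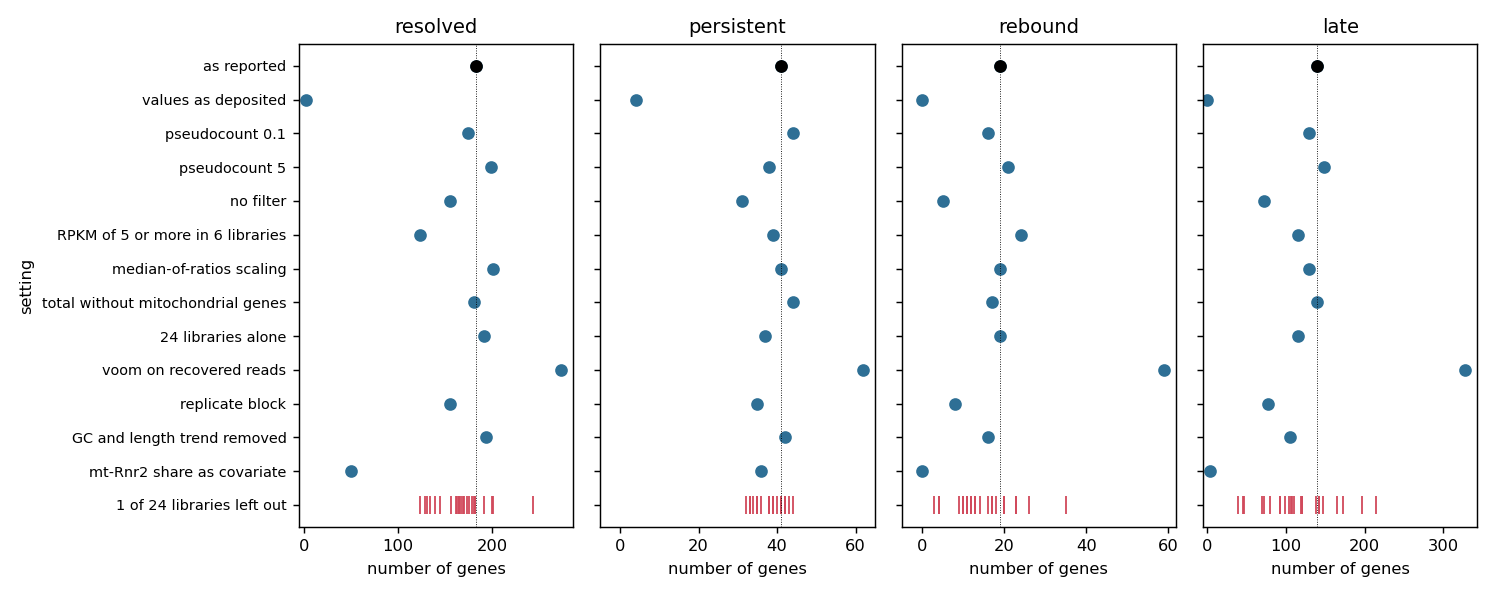
Number of genes in 4 classes (panels) as reported (black, dotted line), under each alternative setting (blue) and with 1 of the 24 libraries left out at a time (red ticks). With the values as deposited the counts were 2 resolved, 4 persistent, 0 rebound and 0 late genes, and with the mt-Rnr2 share as covariate they were 50, 36, 0 and 4.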

How the data were processed

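The library kit was QIAseq FX, per the labels' protocols. The submitters' processing notes list featureCounts 1.5.1 and STAR 2.6.1d, beside FastQC 0.11.8 and bcl2fastq 2.20.0, and the builds mm10 and GRCm38. Strand use is not given in the sources used here. The authors deposited 1 table of RPKM for 48526 genes and 48 libraries. Tested on its values, each RPKM above 0 was a whole number of reads (100% of 719081, within 0.001 reads) divided by the gene span and by the total of 1 of the 48 libraries, which was the library's own for 2.05% of values. The division was undone, totals were matched for 48 of 48 libraries (95 genes of at most 16 reads had more than 1 match), and RPKM was recomputed with each library's own total. The ratio of deposited to recomputed values ran from 0.436 (5th percentile) to 3.11 (95th percentile). Depth was 175382 to 3856777 reads on genes, no molecular identifiers are named, and 0 numeric columns were left unused.

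Genes with RPKM of at least 1 in at least 6 libraries were kept (10132). One limma 3.58.1 fit in R 4.3.3, on log2(RPKM + 1) with trended and robust eBayes, held the 8 group means of the 48 libraries (40 residual degrees of freedom). Two-sided p-values were adjusted over all tested genes by Benjamini and Hochberg, threshold 0.05. Its code was tested on simulated data. The 33 lists were chosen with earlier results of these data known, as were the question and the classes. Named genes were the 10 largest shifts in each direction, up to 8 per class, and up to 4 per list that passed the shift (or the 2 highest in level where none did), with predicted, small RNA and mitochondrial genes left out; outside the lists a mean RPKM of 5 in a group was required. Of 91, 16 share positions with another gene that is neither predicted nor a small RNA. Alternatives were the deposited values, pseudocounts of 0.1 and 5, filters, scalings, voom, the 24 libraries alone, a block on the replicate number, each library left out, and, chosen after seeing the data, GC and length and the mt-Rnr2 share. No 2 libraries of a group agreed within sampling noise. Promoter sequences are from RefSeq (GRCm38.p6). Some genes are not reported here.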

Additional observations from a re-analysis of the deposited data

Results flagged for a closer look

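The shift was itself the test of whether the effect of irradiation differed between the 2 times, and it passed for 257 genes higher and 293 lower. Among the values of named genes, 43 of 372 groups of 6 libraries had 1 library far from the other 5, by a gap to its nearest neighbour that filled most of the group's range (Dixon's test at 95%). Chance marks about 1 in 20 groups. Values are in RPKM.

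In shams at 1 day, 9 of these were in library 6, the shallowest. It was lowest for Abca1 (3.533), Calr (86.34), Casp8 (2.188), Ndufb2 (0) and Slc2a5 (13.52), and highest for Cd72 (2.793), Dhx58 (6.074), Il1a (17.61) and Rsad2 (3.33). Library 2 of that group was highest for Bckdk (10.91) and Cdca3 (2.15), library 1 for Ccl2 (16.1) and Lpl (8.704), library 4 for Spp1 (2.532), and library 5 for Stt3b (6.961) and Wdr24 (47.15).

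In irradiated libraries at 1 day, library 1 was highest for Ighj1 (29.55), Ndufb2 (2.029) and Sdf2l1 (163). Library 2 was highest for Rnf130 (5.634), library 5 for Rpa2 (4.284) and Surf1 (5.298), and library 6 for Bckdk (7.945). Library 4 was highest for Cdca3 (0.9235), H2-Oa (11.17) and Sulf2 (8.039) and lowest for Tgoln1 (26.49).

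In shams at 1 week, library 3 was lowest for Npc2 (31.67) and Surf1 (2.184) and highest for Fcgr4 (2.148). Library 4 was highest for Arl8b (21.78), and library 6 for Phlda3 (0.09849), Psrc1 (0.8796) and Spp1 (3.407).

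In irradiated libraries at 1 week, library 1 was highest for Axl (1.614), Ccl2 (69.6) and Epha2 (16.43). Library 3 was highest for Trp53 (18.66), and library 6 for Ddit4 (74.54) and Ifit3b (0.4724). Library 4 was highest for Bckdk (41.38) and Wdr24 (54.15) and lowest for Cox7a2l (5.622).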

How the results depend on the processing

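The 175382 reads of sham library 6 at 1 day limit what low genes can show in that group. The cause of each move below was not tested. Of 3260 recomputed shifts of named genes, 2920 kept direction and side of the threshold, 315 kept direction but no longer passed, 12 came to pass, and 13 changed sign. Of 1656 recomputed list counts 262 moved by over 1.5 times. Counts below are in the order shift higher and lower, effect at 1 day higher and lower, effect at 1 week higher and lower.

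With the values as deposited, limma gave 0, 2, 39, 0, 10 and 0 (192, 311, 321, 104, 274 and 185 by the unadjusted p), 564 changes in the irradiated arm and 0 in the sham arm (2108 higher and 39 lower by the unadjusted p), and 2 resolved, 0 partly resolved, 0 rebound, 0 late, 0 neither and 4 persistent genes. With the mt-Rnr2 share as covariate the shift gave 19 and 46, the 1 week effect 54 and 16, and the arms 909 and 11. It left 50 resolved, 3 partly resolved, 0 rebound, 4 late and 8 neither genes, and the median shift of all tested genes was -0.00204 in place of 0.05. Voom on the recovered reads gave shifts of 601 and 479, 243 genes lower at 1 day, 422 and 287 at 1 week, and 13 partly resolved, 59 rebound, 327 late, 408 neither and 62 persistent genes. It moved the median shift of all tested genes to 0.2, against which its calls are to be read. Without a filter the shift was higher for 149, 89 genes were lower at 1 week, and 5 rebound, 72 late and 125 neither genes were left. With RPKM of 5 or more, 181 genes were higher at 1 day and 1027 changed in the irradiated arm. A pseudocount of 0.1 left 5 partly resolved genes. The sham arm had 4 changes with the 24 libraries alone and 2 with the GC and length trend removed.

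Leaving out 1 library at a time gave 142 to 446 higher shifts, 195 to 401 lower shifts, 251 to 302 genes higher at 1 day, 89 to 193 lower at 1 day, 86 to 268 higher at 1 week, 51 to 227 lower at 1 week, 1294 to 1971 changes in the irradiated arm, 123 to 244 resolved, 7 to 11 partly resolved, 3 to 35 rebound, 40 to 215 late, 95 to 360 neither and 32 to 44 persistent genes.

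The replicate numbers did not pair the libraries: over 24 pairs the correlation of deviations ran from -0.107 to 0.137, 2 were over 0.1, and 7 sham libraries were closest to their own number. With the replicate block the shift passed for 175 genes higher and 247 lower, with 8 rebound and 78 late genes, and the other counts stayed within 1.5 times. The arms could not be fitted with the block.

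The shift changed sign for Fndc10 to 0.0246 as deposited, 0.0462 with a pseudocount of 0.1, 0.62 with voom, 0.18 without sham library 6 at 1 day, 0.03 without irradiated library 6 at 1 day and 0.0729 without sham library 2 at 1 week, over a range of -0.386 to 0.18 when each library was left out. It did so for Phlda3 to 0.19 with a pseudocount of 0.1 and 1.23 with voom, for Fos to -0.0245 as deposited, for Tpi1 to -0.17 as deposited and -0.27 with the covariate, and, with the covariate, for Ebp to 0.0671 and Trp53 to 0.14. None of these shifts passed the threshold.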

Other observations

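In the irradiated libraries at 1 week, Slc17a7, the vesicular glutamate transporter of excitatory neurons, had 914 reads in library 4 and at most 3 in each of the other 5. The part of this RNA in the values of that library was not tested.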
